A study of Mus musculus with 3 samples.

Results

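The 5 genes described here encode the cytokine IL-21 (Il21), its receptor (Il21r) and the receptor chains through which T cells answer IL-12 and IL-23 (Il23r, Il12rb1 and Il12rb2). They were chosen by name, with earlier results of these data known. Each was read from the probe set that the platform annotation gives to that 1 gene symbol, and they are 5 of the 19935 genes so named. Each had 1 such probe set and shared none with another gene, and all 5 were among the 11003 genes bright enough to be compared. Wild-type C57BL/6 mice 8 weeks old gave naive CD4+ T cells, which are helper T lymphocytes that have not yet met antigen. The cells were cultured with IL-21, with both IL-6 and TGFb1 (IL-6/TGFb1 hereafter), or with medium and vehicle as the control. RNA from each culture was hybridized to 1 array, which makes 3 arrays without replicates. The labels give no cytokine dose, no time in culture, no number of mice and no statement on stimulation of the T cell receptor.

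IL-21 binds a receptor made of the IL-21 receptor and the common gamma chain, and it signals mainly through the transcription factor STAT3. It is made by activated CD4+ T cells, in particular follicular helper and Th17 cells, and it can act on the cells that make it. The IL-12 and IL-23 receptors share the chain encoded by Il12rb1. Paired with the Il12rb2 chain it binds IL-12 and signals through STAT4, the route to interferon gamma and Th1 cells. Paired with the Il23r chain it binds IL-23 and signals mainly through STAT3, which maintains Th17 cells. IL-6 also acts through STAT3, and together with TGFb1 it is the usual way to make Th17 cells from naive cells.

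Each difference below compares 2 arrays and has neither a replicate error nor a p-value. Differences are of log2(intensity + 1), and folds are on the same scale. Array medians ran between an intensity of 182 and 191. The labelled cell type was checked against a list of CD4+ T cell genes, most of which CD8+ T cells share. The 7 measured genes of that list were all above the brightness filter, an intensity of 187. Cd4 itself read 6765 under IL-21, 6077 under IL-6/TGFb1, and 6858 with medium. Of the 7 measured markers of monocytes, macrophages and dendritic cells 0 passed that filter, of the 4 of granulocytes and mast cells 0, and of the 4 of B cells 1 (Cd79b). Of the 2 CD8+ T cell markers Cd8b1 passed it, at 616 on the lowest and 810 on the highest array, while Cd8a did not, and their sum was 876 under IL-21, 772 under IL-6/TGFb1 and 973 with medium. The markers Lck, Trdc and Tcrg-C1 had no probe set of exactly 1 symbol and were not analysed here. Several of the receptor genes here are also used by NK cells. Of 4 NK cell markers Nkg7, a granule protein gene also used by T cells, was the 1 above the filter, at 2291 under IL-21, 1126 under IL-6/TGFb1, and 2259 with medium. Ncr1 and Klrb1c read at most 76.3 on any array. Klrd1 read 98.1 under IL-21, 173 under IL-6/TGFb1, and 66.0 with medium. The summed intensity of the NK list was 2508, 1420 and 2445 in the same order, and its part in the results was not tested. In such bulk RNA, more cells with a transcript and more transcript per cell cannot be told apart.

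Il21 and Il23r were more than 2-fold higher than medium in both treated cultures, while Il21r, Il12rb1 and Il12rb2 were within 2-fold of medium in both. Under IL-21, 2 of the 5 genes were higher by 2-fold or more and 0 were lower by as much, against 0.482% and 0.109% of all compared genes. Under IL-6/TGFb1 the counts were again 2 and 0, against 0.673% and 0.364%. Both counts subtract the same medium array. Il21 and Il23r passed the brightness filter through the treated arrays alone, where they were high. The counts are therefore not independent of that filter, and they are a description and not a test.

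**Figure D1:**
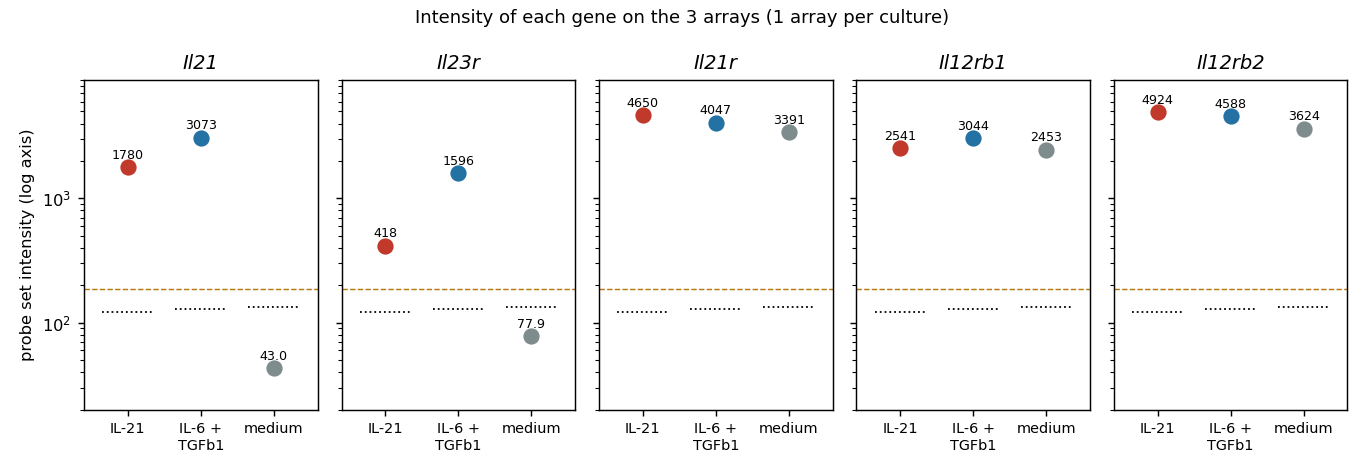
Probe set intensity (log axis) of each gene on the 3 arrays, with 1 point per culture and 1 array per culture. The dashed line is the brightness filter at 187, and the dotted lines are each array's 95th percentile of 1027 olfactory receptor genes (122 under IL-21, 130 under IL-6/TGFb1, 135 with medium). Il21 and Il23r lie below both lines on the medium array only, and the other genes lie far above them on every array.

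Il21, the ligand gene, had an intensity of 1780 under IL-21 and 3073 under IL-6/TGFb1, against 43.0 with medium. Both treated arrays were far above the medium array. The difference from medium was 5.34 under IL-21, a fold of 40.5, and 6.13 under IL-6/TGFb1, a fold of 69.9. It ranked 1 of 11003 in each comparison, also with low values of every gene raised as below. The medium value is not distinguishable from background: 38.3% of 1027 olfactory receptor genes, which have no known use in T cells, read lower on that array, and their median was 48.4. The folds therefore rest on a value that gives only an upper limit for Il21 in medium. With every lower value set to 135, the 95th percentile of the olfactory receptor genes on the medium array, Il21 was at least 13.1-fold higher under IL-21 and at least 22.6-fold higher under IL-6/TGFb1. This level was chosen after the values were seen. The array reads RNA, so IL-21 protein added to a culture does not contribute to this value.

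Il23r, the IL-23 binding chain, read 418 under IL-21 and 1596 under IL-6/TGFb1, against 77.9 with medium. The order of the cultures was that of Il21, with IL-6/TGFb1 at the top and medium at the bottom. Its difference from medium was 2.41 under IL-21 and 4.34 under IL-6/TGFb1 (rank 2 of 11003 in each comparison). The medium value of Il23r lay within the background range as well, above 82.2% of the olfactory receptor genes. With low values raised to 135, it was at least 3.08-fold higher under IL-21 and at least 11.7-fold higher under IL-6/TGFb1. With low values of every gene raised in that way, Il23r ranked 12 under IL-21 and 4 under IL-6/TGFb1, so its rank of 2 rests on the dim medium value.

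Il21r, the receptor chain that binds IL-21, was bright on every array, at 4650 under IL-21, 4047 under IL-6/TGFb1, and 3391 with medium. Its differences from medium were 0.46 under IL-21 and 0.26 under IL-6/TGFb1. Of all compared genes, 5.02% were at least as far from 0 as the first of these differences and 19.1% as the second. Il12rb2, the chain specific to the IL-12 receptor, had the same order of cultures, at 4924 under IL-21, 4588 under IL-6/TGFb1, and 3624 with medium. Its differences from medium were 0.44 and 0.34, and 5.43% and 11.2% of compared genes were at least as far from 0. Il12rb1, the chain shared by both receptors, read 2541 under IL-21, 3044 under IL-6/TGFb1, and 2453 with medium. It differed from medium by 0.05 under IL-21, where 65.8% of compared genes were at least as far from 0, and by 0.31 under IL-6/TGFb1.

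With 1 array per culture, the closest scale for these small differences is the gap between the 2 brightest probe sets of the same gene within the same arrays. Over 629 genes with more than 1 bright probe set, the 95th percentile of that gap was 0.41 for IL-21 minus medium, 0.37 for IL-6 with TGFb1 minus medium and 0.34 for IL-21 minus IL-6 with TGFb1. The gap leaves out the spread between cultures. Il21r and Il12rb2 lay just beyond it under IL-21 and within it under IL-6/TGFb1. Il12rb1 lay within it in all 3 comparisons. All 5 genes were above 0 in both comparisons with medium, where 59.8% of compared genes were above 0 under IL-21 and 56.3% under IL-6/TGFb1. The median over the 5 genes was 0.46 and 0.34, and over all compared genes 0.04 and 0.02.

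**Figure D2:**
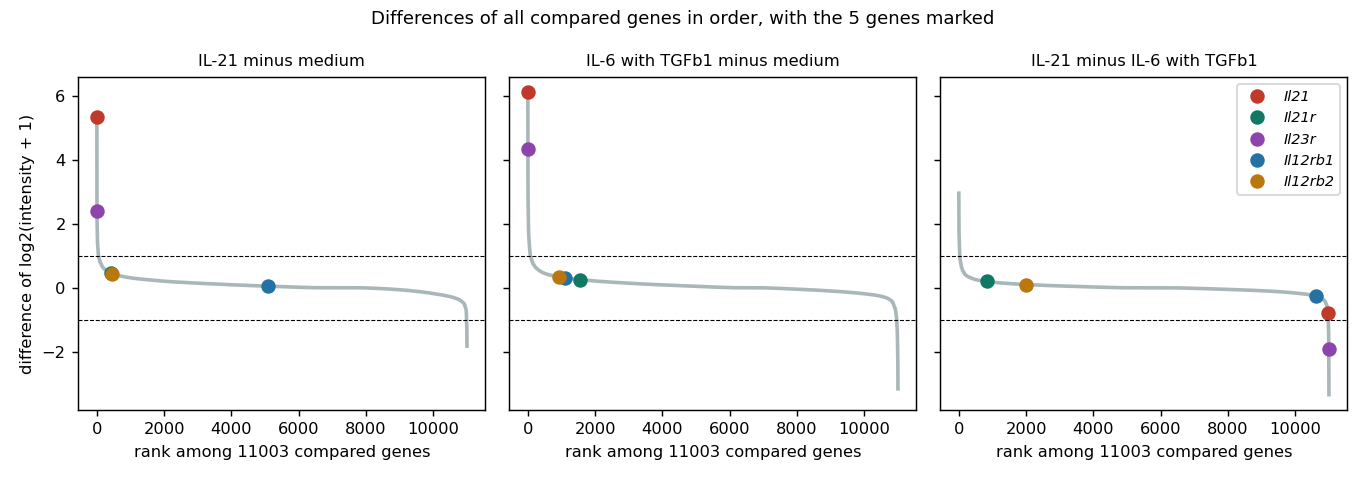
Difference of log2(intensity + 1) against rank for the 11003 compared genes (grey line) in each comparison, with the 5 genes as coloured points and dashed lines at 2-fold. Il21 and Il23r stand at the top left in both comparisons with medium (ranks 1 and 2 on the values as measured, and 1 and 12 under IL-21 or 1 and 4 under IL-6/TGFb1 with low values raised to 135) and at the bottom right between the treated cultures (ranks 10973 and 10998).

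The treated cultures can be compared without the medium array, and there every value of the 5 genes was above the 95th percentile of the olfactory receptor genes. The cytokine (IL-21 or IL-6) and the presence of TGFb1 both differ between them, and their parts cannot be told apart here. Of the 5 genes, 1 was lower by 2-fold or more under IL-21 than under IL-6/TGFb1 and 0 were higher by as much, against 0.191% and 0.264% of compared genes. That gene was Il23r, with 418 against 1596, a difference of -1.93 (3.81-fold lower under IL-21). Only 10 of the 11003 compared genes, Il23r included, were as far from 0. Il21, with 1780 against 3073, differed by -0.79 (1.73-fold lower under IL-21) and stayed within 2-fold. Il21 included, 88 compared genes (0.800%) were at least as far from 0. Il12rb1 had 2541 under IL-21 and 3044 under IL-6/TGFb1, a difference of -0.26. Il21r (0.20) and Il12rb2 (0.10) were on the other side, slightly higher under IL-21. These last 3 differences lay within the probe set gap of 0.34. The receptor chains that pair with each other therefore had unlike values: Il23r was past 2-fold lower under IL-21, while its partner Il12rb1 and the alternative partner of that chain, Il12rb2, were within 2-fold.

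Il23r and Il12rb2 are direct neighbours on chromosome 6, and Il21 is the direct neighbour of Il2 on chromosome 3, going by the order of protein-coding genes in RefSeq (GRCm38.p6, used for order and promoter sequence alone). Those of the 3 nearest protein-coding genes on each side that had a probe set of 1 symbol were read for every gene, a choice made after the values of the 5 genes were seen. Around Il23r, the 5 compared neighbours lay between -0.11 (Gadd45a) and 0.44 (Il12rb2) under IL-21, and between -0.20 (Rpia) and 0.34 (Il12rb2) under IL-6/TGFb1. Il23r itself was at 2.41 and 4.34. Around Il21, the 5 compared neighbours lay between 0.24 and 0.68 under IL-21 and between -0.61 and 0.52 under IL-6/TGFb1. Il2, the gene of the T cell growth factor IL-2, read 2963 under IL-21, 1604 under IL-6/TGFb1, and 2445 with medium. It was lowest under IL-6/TGFb1, the culture in which its neighbour Il21 was highest. The neighbour on the other side was Cetn4, a centrin gene, at 0.68 and 0.52. The receptor gene Il4ra lies beside Il21r on chromosome 7 and differed from medium by 0.34 under IL-21 and -0.02 under IL-6/TGFb1, next to 0.46 and 0.26 for Il21r. None of the compared neighbours other than the 5 genes reached 2-fold in any of these comparisons with medium.

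**Figure D3:**
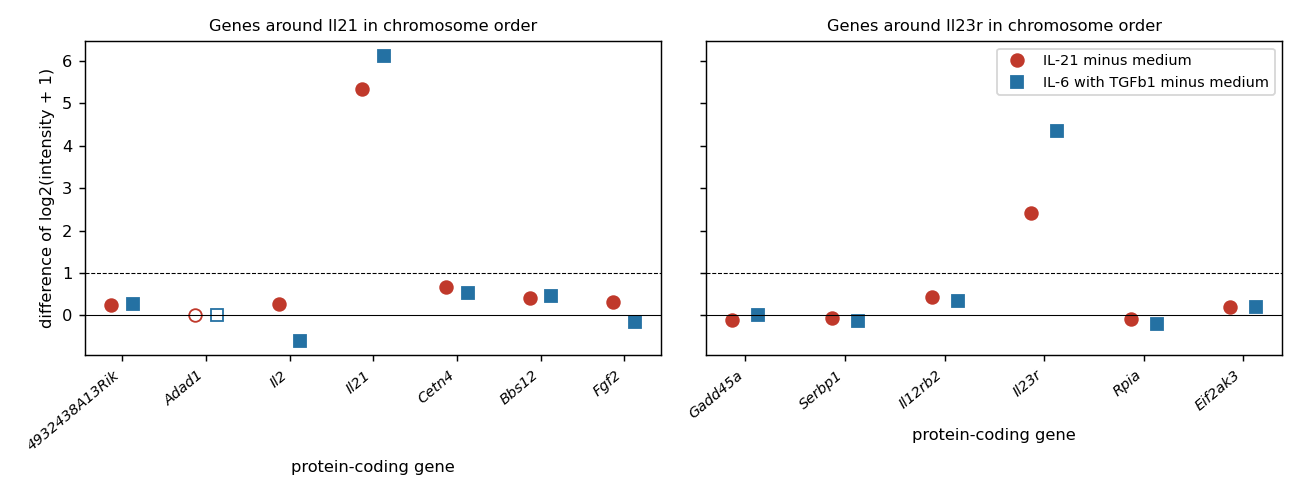
Difference of log2(intensity + 1) from medium for Il21 (left) and Il23r (right) and those of the 3 nearest protein-coding genes on each side that had a probe set of 1 symbol, in chromosome order without distances. Circles are IL-21 and squares IL-6 with TGFb1, and open symbols mark Adad1, which was below the brightness filter. Only Il21 and Il23r lie above the dashed line at 2-fold.

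The 250 bases before the transcription start were taken from RefSeq for the 4 genes that matched (Il21, Il21r, Il23r and Il12rb2), and those of Il21 and Il23r are shown because these were the genes far above medium in both treated cultures. The Il21 window is chr3:37232637-37232886 on the minus strand and the Il23r window chr6:67491856-67492105 on the minus strand, both in GRCm38.p6 and written 5′ to 3′ in the direction of the gene. Capitals mark matches, on either strand, to the letters TTCNNNGAA (STAT factors), TGCTGAC (Maf), AGGTCA (ROR receptors), GCGTG (AHR), CAGACA (SMAD) and TGANTCA (AP-1). Matches to GGAAA (NFAT) were counted but left in lower case.
Il21: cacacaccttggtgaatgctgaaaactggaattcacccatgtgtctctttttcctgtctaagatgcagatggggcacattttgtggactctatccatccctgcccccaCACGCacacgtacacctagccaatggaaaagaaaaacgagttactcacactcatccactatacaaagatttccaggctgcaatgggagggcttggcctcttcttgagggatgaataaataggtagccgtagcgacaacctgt
Il23r: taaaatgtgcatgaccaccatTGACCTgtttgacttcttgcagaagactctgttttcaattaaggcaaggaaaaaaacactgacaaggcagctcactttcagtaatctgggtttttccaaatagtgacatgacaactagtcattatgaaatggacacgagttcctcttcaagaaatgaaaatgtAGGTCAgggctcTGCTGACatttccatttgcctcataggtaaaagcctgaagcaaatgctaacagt

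In the Il23r window TGCTGAC begins 54 bases before the start, and 3.81% of 32851 RefSeq windows of the same length hold it. AGGTCA occurs in that window at 66 bases before the start, and on the other strand at 229, against 14.0% of all windows. The Il21 window holds GCGTG on the other strand at 142 bases before the start, a match found in 28.2% of all windows. Each of these windows holds 3 matches to GGAAA, which 55.6% of all windows contain. TTCNNNGAA, present in 7.02% of all windows, is in neither of them and is in that of Il12rb2, 123 bases before the start. The Il12rb2 window also holds 4 matches to GCGTG. That of Il21r holds AGGTCA and CAGACA, the latter present in 17.1% of all windows. No match to TGANTCA, present in 6.75% of all windows, was in any of the 4. No matches to different motifs overlapped in the Il21 and Il23r windows. These are matches of letters and say nothing of binding.

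Likeness to Il21 and Il23r was measured over the 3 arrays as the distance between log2 values, each gene centred on its own mean. With 3 arrays this is a description alone. The gene closest to Il21 was Il23r, at a distance of 2.09. The following were Cysltr1 (2.50), the transcription factor gene Ahr (2.75), the creatine synthesis enzyme gene Gatm (2.80) and the growth factor binding protein gene Igfbp4 (2.95). These distances include the background value of Il21 in medium. With low values of every gene raised to 135 they shrank, and the order changed: Ahr (1.43) and Cysltr1 (1.47) then came before Il23r, and Gatm (1.49) just after it. The gene closest to Il23r was Cysltr1, at 0.45 and, with low values raised, 0.47. Cysltr1, a leukotriene receptor gene, read 466 under IL-21, 2484 under IL-6/TGFb1, and 133 with medium. Ahr (1.03), the protease inhibitor gene Timp1 (1.18), the membrane protein gene Emp1 (1.27) and Gatm (1.40) came next. With low values raised, this order changed as well: Emp1 (0.63) came before Ahr (0.65), followed by Mt2 (1.05) and Timp1 (1.05). Gatm was then no longer among the 5 closest. Of the other compared genes, 257 (2.34%) lay within 0.1 of Il21r, 361 (3.28%) of Il12rb1 and 398 (3.62%) of Il12rb2. Within the same distance of Il21 and of Il23r there were 0, so their closest genes are not close on this scale.

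Other genes of these pathways were read in 7 lists holding 67 genes without the 5 above, of which 62 had a probe set of 1 symbol and 56 were compared. The lists were chosen with earlier results of these data known. Their shares beside those of all compared genes, here and below, are therefore a description and not a test. Il2rg, which encodes the common gamma chain, was not analysed here for lack of a probe set of exactly 1 symbol, nor were Jak3 and Il22. Under IL-21, 4 of the 56 (7.14%) were past 2-fold on the higher side and 2 (3.57%) on the lower side, against 0.482% and 0.109% of all compared genes. Their median was 0.17, against 0.04. Under IL-6/TGFb1, the counts were 8 (14.3%) and 3 (5.36%), against 0.673% and 0.364%, with a median of 0.19 against 0.02. Between the treated cultures, 3 were past 2-fold higher and 6 past 2-fold lower under IL-21 (5.36% and 10.7%, against 0.264% and 0.191% of all compared genes), with a median of 0.00. The ligands of the IL-12 and IL-23 receptors were dim: Il12a, Il12b and Il23a, the subunit genes of IL-12 and IL-23, read between 115 and 161 over the 3 arrays and were not compared. Among 14 other receptor chains Il18r1, a chain of the IL-18 receptor, was the 1 past 2-fold, at 395 under IL-21 and 687 under IL-6/TGFb1, against 174 with medium. The median difference of these chains from medium was 0.12 and 0.17. None of the 7 compared kinase and STAT genes reached 2-fold, and their medians were 0.22 and 0.24. Jak2, a kinase of the IL-12 and IL-23 receptors, differed from medium by 0.73 under IL-21 and 0.40 under IL-6/TGFb1. Stat4, the main IL-12 signal transducer, differed by 0.14 and -0.40. Of the 7 feedback inhibitors Socs3, which restrains STAT3-activating receptors, was the 1 past 2-fold, at 1.52 in both comparisons, and its dimmer probe set gave 0.86 and 0.56.

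Among 11 compared transcription factors and regulators linked to Il21 or Il23r, 1 was at least 2-fold higher under IL-21 (9.09%, against 0.482% of all compared genes) and 4 under IL-6/TGFb1 (36.4%, against 0.673%). Their median differences were 0.46 and 0.64. Ahr was the gene past 2-fold in both, at 1.84 and 2.89. Maf, a factor that activates Il21, read 296 under IL-21 and 1865 under IL-6/TGFb1, against 273 with medium. It differed from medium by 0.12 in the IL-21 culture, where Il21 read 1780. A link between Maf and Il21 was not tested. Rora, a nuclear receptor of Th17 cells, was at 0.67 under IL-21 and 1.79 under IL-6/TGFb1, and Sgk1, a kinase linked to Il23r, at 0.70 and 1.26. Like Il23r, the genes Maf (-2.65), Rora (-1.12) and Ahr (-1.05) were past 2-fold on the lower side under IL-21 compared directly with IL-6/TGFb1. Of the 7 factors linked to Il12rb2 and Th1 cells, Eomes was lower than medium by 2-fold or more in both treated cultures, at -1.83 under IL-21 and -3.17 under IL-6/TGFb1. Tbx21, the Th1 master regulator T-bet, differed by 0.06 and -0.47, beside 0.44 and 0.34 for Il12rb2. Gata3, the Th2 regulator, differed by 0.70 and -1.74. Among 7 compared effector genes, Ifng, the main product of IL-12 signalling, read 514 under IL-21 and 290 under IL-6/TGFb1, against 1153 with medium. Gzma, the granzyme A gene, was the 1 effector gene past 2-fold on the higher side under IL-21 (1.68, and 0.34 under IL-6/TGFb1). Under IL-6/TGFb1 these were Il17f and Il9 (1.24). Il17f, a cytokine of Th17 cells, read 185 under IL-21 and 1896 under IL-6/TGFb1, against 160 with medium. Il17a, in the same list, was dim: it read 125 under IL-21 and 193 under IL-6/TGFb1, against 175 with medium. Of these values, only that under IL-6/TGFb1 passed the brightness filter of 187. The value under IL-21 was below 135, the background level to which low values were raised above. The differences of Il17a from medium were -0.48 and 0.15, both within 2-fold. The first of these differences rests on that background value. Whether Il17a shared the rise of Il17f cannot be settled from so dim a probe set.

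**Figure D4:**
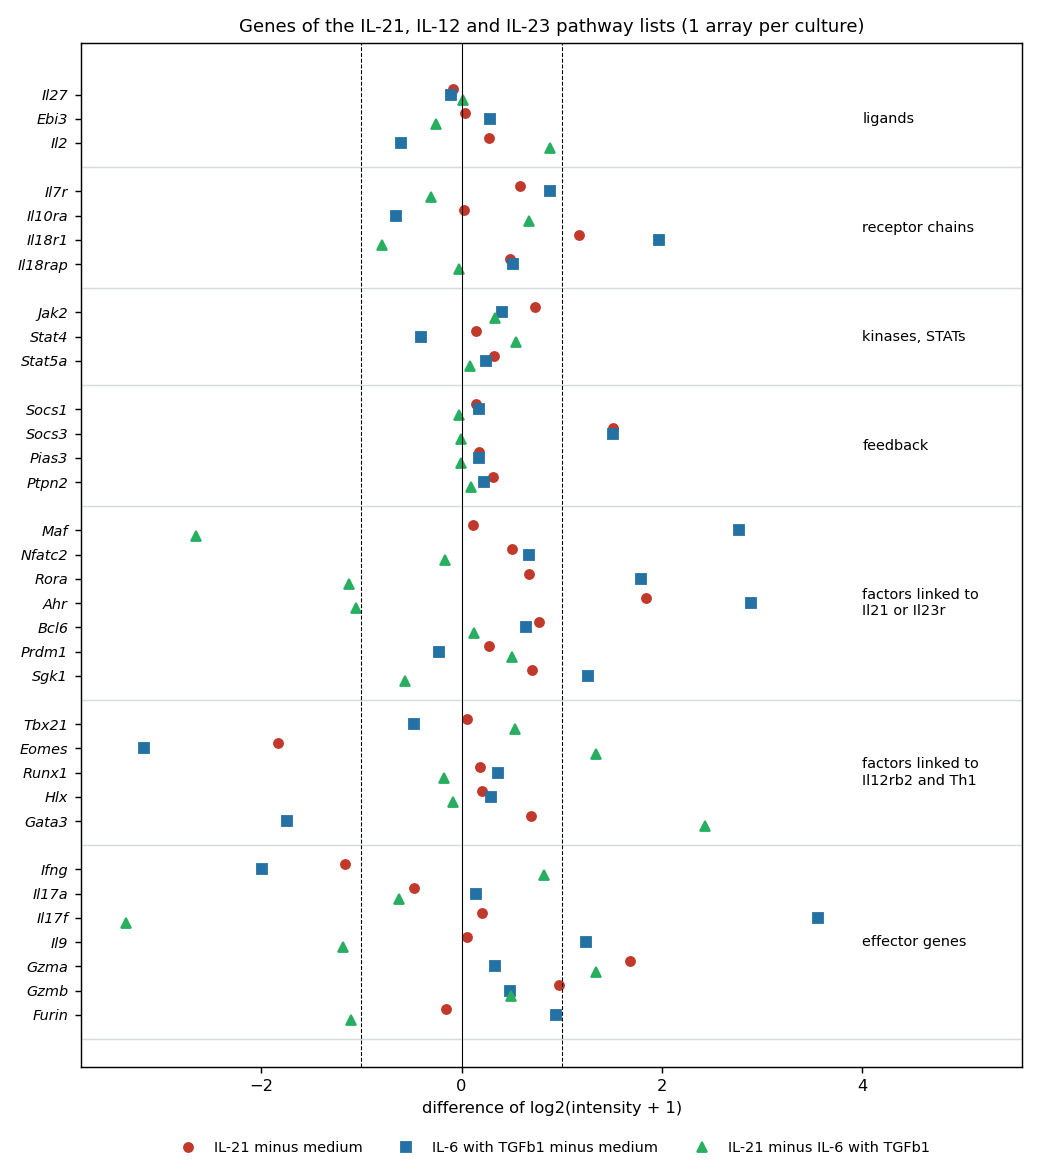
Difference of log2(intensity + 1) for the named genes of the 7 pathway lists in 3 comparisons: circles for IL-21 minus medium, squares for IL-6 with TGFb1 minus medium and triangles for IL-21 minus IL-6 with TGFb1, each from 1 array per culture. Dashed lines mark 2-fold. Maf and Il17f lie near 0 under IL-21 and at 2.77 and 3.56 under IL-6/TGFb1.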

How the data were processed

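Total RNA of the 3 cultures was labelled with an Affymetrix whole-transcript kit and hybridized by a service company, per the labels' protocols. The deposited values are intensities on a linear scale, 1 for each of 28815 probe sets and array, as read from the values. How the authors summarized and normalized them is not given in the sources used, and the genome build was mm8 per the submitters' processing notes. Exactly equal values on all 3 arrays were found for 2908 probe sets.

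Of the probe sets, 21780 had 1 gene symbol in the platform annotation, 1605 had several and 5430 had none listed. Those with 1 symbol were used, and a gene was read from the one with the highest mean log2 value. Genes whose highest intensity reached the median of all values, 187, were compared as differences of log2(intensity + 1), with no further normalization. No test was possible with 1 array in each group, and the number of arrays limits the precision. Named genes were the 5 members, list genes past 2-fold in any comparison with up to 3 more per list, the 5 genes most like each member past 2-fold, and the markers. The members and lists were chosen with earlier results of these data known. The calculations, tested on simulated data, used Python 3.11.15, pandas 2.3.3 and numpy 2.4.6. The alternatives were other pseudocounts, raised low values, quantile normalization, median centring, other probe set rules and other brightness filters.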

Additional observations from a re-analysis of the deposited data

Results flagged for a closer look

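Among the named genes and markers above the brightness filter, 3 lay on opposite sides of medium in the treated cultures and at least 2-fold apart between them, with 1 array each, and the difference was not tested. Gata3 differed from medium by 0.70 under IL-21 and -1.74 under IL-6/TGFb1, which puts it 2.43 higher under IL-21 on the log2 scale. Furin, which encodes a protease that processes proproteins such as that of TGFb1, differed by -0.15 and 0.95. That puts it at -1.10 under IL-21 against IL-6/TGFb1. Its value of -0.15 lay within the probe set gap of 0.41, so its side of medium under IL-21 is not settled. Nkg7, the granule protein gene, read 2291 under IL-21 and 1126 under IL-6/TGFb1, against 2259 with medium. It was only 0.02 above medium under IL-21, and 1.02 higher there than under IL-6/TGFb1.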

How the results depend on the processing

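All 120 recomputed differences of the 5 genes kept their sign, over 8 alternatives and 3 comparisons. The other probe set rules among these alternatives could not change a value, because each of the 5 genes had 1 probe set. Another pseudocount or raised low values cannot reverse a sign. Only quantile normalization and median centring could have done so, and most of the 120 signs were therefore fixed in advance. Il21 minus medium moved most, since its medium value is dim: under IL-21 it was 4.93 with a pseudocount of 16, 4.67 with low values raised to the 20th percentile over all arrays and 3.71 with them raised to the olfactory receptor level. Under IL-6/TGFb1 these values were 5.71, 5.46 and 4.50. At the olfactory receptor level, an alternative chosen after seeing the data, Il23r was at 1.62 under IL-21 and 3.55 under IL-6/TGFb1. Its rank of 2 became 12 and 4 there, and that of Il21 stayed 1. With the filter at the 75th percentile, genes at least 2-fold higher and lower numbered 27 and 7 under IL-21, 42 and 26 under IL-6/TGFb1, and 19 and 11 between the treated cultures, against 53 and 12, 74 and 40, and 29 and 21. Fewer genes pass that filter. The pathway genes at least 2-fold higher then numbered 2 under IL-21 and 5 under IL-6/TGFb1. The median of the pathway genes under IL-21 was 0.23 with every array centred on its median log2 value, where that of all compared genes was 0.10, and 0.10 after quantile normalization. Centring shifts every gene of a comparison by the same amount, as the array medians were 182 under IL-21 and 191 with medium. The cause of the change after quantile normalization was not tested. No paired analysis was possible because each group has 1 array. What these arrays cannot give is the spread between cultures, and values near 135 or below cannot be told from background.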
